A study of Mus musculus with 12 samples.

Results

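The mitochondrial chromosome of the mouse encodes its own small set of RNAs, and these were examined in C2C12, an established mouse myoblast line. Members were all genes of the deposited table whose symbol starts with mt-. This rule took 37 of 78298 genes, namely 13 messenger RNAs, 2 ribosomal RNAs and 22 transfer RNAs. Of these, 15 held at least 1 count in the 11 libraries used, and 14 passed the filter on low counts. The study compared wild-type C2C12 cells (WT, 6 libraries) with RGECO (6 libraries), a C2C12 line with a genetically encoded calcium indicator, that is, a protein sensor of calcium. Both lines were cultured on a hydrogel of methacrylated gelatin and differentiated for 14 days in medium with 10% horse serum, 1 mg/ml aminocaproic acid and 50 ng/ml of the growth factor IGF-1. The labels do not say how the indicator was introduced or whether the RGECO line is a single clone. RNA was selected for poly(A) tails and sequenced as paired reads of 50 bases.

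The mitochondrial chromosome is read from both strands into long precursors, from which the transfer RNAs are cut out and the RNAs between them released. The messenger RNAs encode core subunits of complexes I, III, IV and V of oxidative phosphorylation, and the 2 ribosomal RNAs belong to the ribosome that translates them. Mitochondrial messenger RNAs and ribosomal RNAs receive short A tails, which in several messenger RNAs complete the stop codon, and muscle fibres are rich in mitochondria.

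On the reference chromosome (GENCODE M21, GRCm38) the 37 genes lay close together between base 1 and base 15422. The 12 messenger RNAs of the plus strand and mt-Nd6, the only messenger RNA of the minus strand, measured 204 to 1824 bases. The ribosomal RNA mt-Rnr2 (chrM:1094-2675), the leucine transfer RNA mt-Tl1 (chrM:2676-2750) and the complex I messenger RNA mt-Nd1 (chrM:2751-3707) followed each other with no base between them. The 75 bases of mt-Tl1 are printed because they are the spacer between the most abundant ribosomal RNA and a messenger RNA in these data:
mt-Tl1: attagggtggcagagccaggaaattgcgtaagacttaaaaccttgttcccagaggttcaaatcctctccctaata

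The annotated reading frame ended in a bare T, which is not a stop codon, in 3 messenger RNAs, mt-Co3, mt-Nd4 and mt-Cytb. A further 8 ended in TAA and 2 in TAG. The last bases of those 3 genes are shown beside those of mt-Nd1, because all 4 enter the comparison of the lines, with the last codon or its first base in capitals:
mt-Co3: tacgtctccatttattgatgaggatctT
mt-Nd4: ccaaaactaattacaggcctgacaataT
mt-Cytb: gaagacaaaatactaaaattatatccaT
mt-Nd1: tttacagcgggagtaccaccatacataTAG

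The nuclear genome holds a close copy of part of the mitochondrial chromosome, and its genes are counted separately in the deposited table. A block of 4663 bases at chr1:24611535-24616197 (minus strand, GRCm38) holds 7 annotated genes that match mt-Co1, mt-Co2, mt-Atp6, mt-Co3, mt-Nd3, mt-Nd4l and mt-Nd4. Gm28661 equals mt-Co2 over 681 of its 684 bases, Gm10925 (listed as Atp6-ps in the deposited table) equals mt-Atp6 over 678 of 681, and Gm28437 equals mt-Co3 over 783 of 784. Gm10222 equals mt-Nd4l over 294 of 297 bases and Gm28439 equals the first 876 of the 1378 bases of mt-Nd4. Reads that lie within these stretches carry no base that tells the copy from the mitochondrial gene, as in the 60 bases that open both mt-Co3 and Gm28437:
mt-Co3 and Gm28437: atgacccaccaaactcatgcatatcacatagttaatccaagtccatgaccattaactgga

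Over the stretch that aligned, the other 2 copies differ from their gene at 1 base each, counted from 1 at the 5′ end of the mitochondrial gene. Gm29216, of which 483 of 492 bases aligned, matches bases 1063 to 1545 of mt-Co1 apart from A1066T. Gm28438 matches bases 1 to 345 of mt-Nd3 apart from T3C. The differing base is in capitals:
mt-Co1: ggaAttgttttatccaactcatcc
Gm29216: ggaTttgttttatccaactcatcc
mt-Nd3: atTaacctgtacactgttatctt
Gm28438: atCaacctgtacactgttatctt

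The 11 libraries used held 5881622 to 11926220 estimated counts. RGECO replicate 4 held 825 counts in 252 genes and 0 counts of any mitochondrial gene, and it is left out of all values below unless all 12 libraries are named. Genes with a count numbered 18912 to 20176 in WT and 15584 to 19410 in RGECO. Markers of skeletal myotubes were present in both lines: the 8 genes listed (Myh3, Acta1, Ckm, Mylpf, Tnnt3, Ttn, Myog and Des) summed to 19162 to 26761 counts per 1000000 counts (CPM, scaled by TMM) in WT and 24138 to 30872 in RGECO. Among markers of other cells, the macrophage gene Adgre1 and the adipocyte gene Plin1 were at 0 in all 11 libraries, but the other genes of their lists had counts. The 3 macrophage genes listed summed to 0 to 0.590 CPM in WT and 0 to 0.295 in RGECO. The 6 fibroblast or adipogenic genes listed summed to 1874 to 3073 CPM in WT and 792 to 1134 in RGECO. Of the 4 neuronal genes listed, Snap25 and Chat were at 0 in all 11, while Tubb3 and Map2 had counts in every library, and the summed level of the list was 34.6 to 63.4 CPM in WT and 74.8 to 97.7 in RGECO.

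Mitochondrial RNA made up a small and variable share of the counts. It was 0.754, 0.204, 0.530, 1.68, 1.16 and 1.59% in WT replicates 1 to 6, and 0.509, 0.726, 0.625, 0.298 and 1.33% in RGECO replicates 1, 2, 3, 5 and 6. The lowest and the highest share were both WT libraries, 8.23-fold apart, so the range of WT enclosed every RGECO library. WT averaged 0.986 ± 0.591% (SD, n = 6) and RGECO 0.698 ± 0.389% (SD, n = 5), a difference of 0.288 percentage points that is smaller than the spread within either line. The widest 95% Wilson interval of a share was 0.0159 percentage points, far narrower than the distance between most libraries, and such intervals cover counting error only. With the counts of the 7 nuclear copies added, the shares ran from 0.251 to 1.84% in WT and from 0.307 to 1.43% in RGECO.

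**Figure D1:**
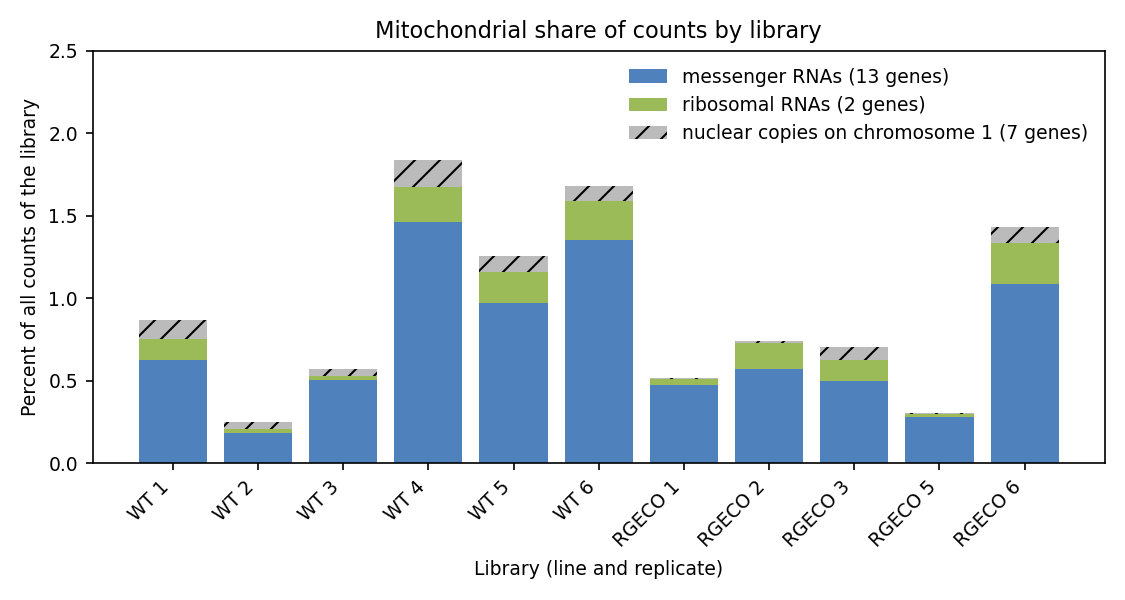
Percent of all estimated counts that fell on mitochondrial messenger RNAs (blue), ribosomal RNAs (green) and the nuclear copies on chromosome 1 (hatched grey), stacked for each of 6 WT and 5 RGECO libraries. WT replicate 2 and WT replicate 4 are the lowest and the highest for mitochondrial genes at 0.204 and 1.68%, and the RGECO libraries lie between them.

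Other RNAs also varied between libraries. Malat1, a long nuclear RNA, took 0.430, 0.156, 0.566, 0.784, 0.641 and 0.898% of the counts in WT replicates 1 to 6 and 0.633, 0.252, 0.180, 0.274 and 0.645% in RGECO replicates 1, 2, 3, 5 and 6. WT replicate 2 was the lowest of its line in Malat1 and in the mitochondrial share, and RGECO replicate 6 the highest of its line in both. The other extremes differed. Malat1 was highest in WT replicate 6, but the mitochondrial share in WT replicate 4. In RGECO, Malat1 was lowest in replicate 3, but the mitochondrial share in replicate 5. Rpph1, the RNA component of RNase P, took 0.124 to 0.175% of the counts in WT and 0.0384 to 0.121% in RGECO, with no overlap. Rmrp, the RNA of RNase MRP, likewise took 0.0616 to 0.138% in WT and 0.0135 to 0.0506% in RGECO. By CPM, 7.97% of all genes tested did not overlap between the lines. Neat1 took 0.0314 to 0.230% in WT and 0.0208 to 0.150% in RGECO, with overlap. Rn7sk also overlapped, at 0.504 to 1.13% in WT and 0.235 to 0.612% in RGECO. The part of these RNAs, or of RNA quality, in the mitochondrial values was not tested.

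Messenger RNAs formed most of the mitochondrial total and ribosomal RNAs a changing remainder. Ribosomal RNAs made up 17.1, 9.13, 4.58, 12.8, 16.2 and 15.1% of the mitochondrial counts in WT replicates 1 to 6 and 7.40, 21.6, 20.6, 5.92 and 18.5% in RGECO replicates 1, 2, 3, 5 and 6. RGECO replicates 1 and 5 were low and replicates 2, 3 and 6 were higher than every WT library. The mean of WT, 12.5 ± 4.82% (SD, n = 6), and that of RGECO, 14.8 ± 7.53% (SD, n = 5), differed by less than the spread within either line. The 22 transfer RNAs, of 59 to 75 bases each, were listed at 0 in every library. A count of 0 allows a share of up to 0.00180 to 0.0171% of the mitochondrial counts, depending on the library, taking 3 counts as the limit. Mature transfer RNAs carry no A tail and are not much longer than 1 read, so a selection for poly(A) tails is not a measure of their abundance.

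The split between a mitochondrial gene and its nuclear copy differed strongly from library to library. For mt-Co3, the third subunit of cytochrome c oxidase, the copy Gm28437 took 57440 counts over the 11 libraries against 17026 for mt-Co3 itself. The copy's share of the pair ranged from 23.6 to 100%, with a median of 77.3%. In WT replicate 4, where the mitochondrial share was highest, mt-Co3 was listed at 0 and Gm28437 at 12918 counts. In RGECO replicates 1, 2 and 5 the order was turned round, with 1834, 3011 and 543 counts for mt-Co3 and 567, 1357 and 432 for the copy.

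The pair of mt-Atp6, a membrane subunit of ATP synthase, and Atp6-ps was split in a different set of libraries. The copy took 0 counts in RGECO replicates 1 and 2 and WT replicate 3, and 93.6% of the pair in WT replicate 2. For mt-Nd3, a complex I subunit, 10 libraries listed counts for the copy only and WT replicate 6 listed 405 counts for mt-Nd3 only, which is why mt-Nd3 alone did not pass the filter. For mt-Nd4l, another complex I subunit, all counts lay on the copy in RGECO replicates 1, 3 and 5. The copies of mt-Co1, mt-Co2 and mt-Nd4 took 1.08, 4.57 and 0.00918% of their pairs over all libraries, but the copy of mt-Co2 held 27.1% in RGECO replicate 6 and the copy of mt-Co1 14.0% in WT replicate 2.

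Adding each copy to its gene made the libraries of a line more alike for mt-Co3 and mt-Atp6. As a share of the mitochondrial total, mt-Co3 had a coefficient of variation of 86.0% in WT and 62.4% in RGECO when taken alone, and of 8.52% and 13.9% with Gm28437 added. For mt-Atp6 it went from 49.7 to 9.17% in WT and from 33.4 to 15.1% in RGECO. For mt-Co1 it went from 7.61 to 6.92% in WT but from 13.5 to 15.8% in RGECO. Values of mt-Co3, mt-Atp6, mt-Nd3 and mt-Nd4l are therefore uncertain unless the copy is included, and their fold changes in the fit of all genes are also given with it. A less similar copy on chromosome 2, Gm13340 (97.6% identical to mt-Co1), held 226 counts over the 11 libraries.

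**Figure D2:**
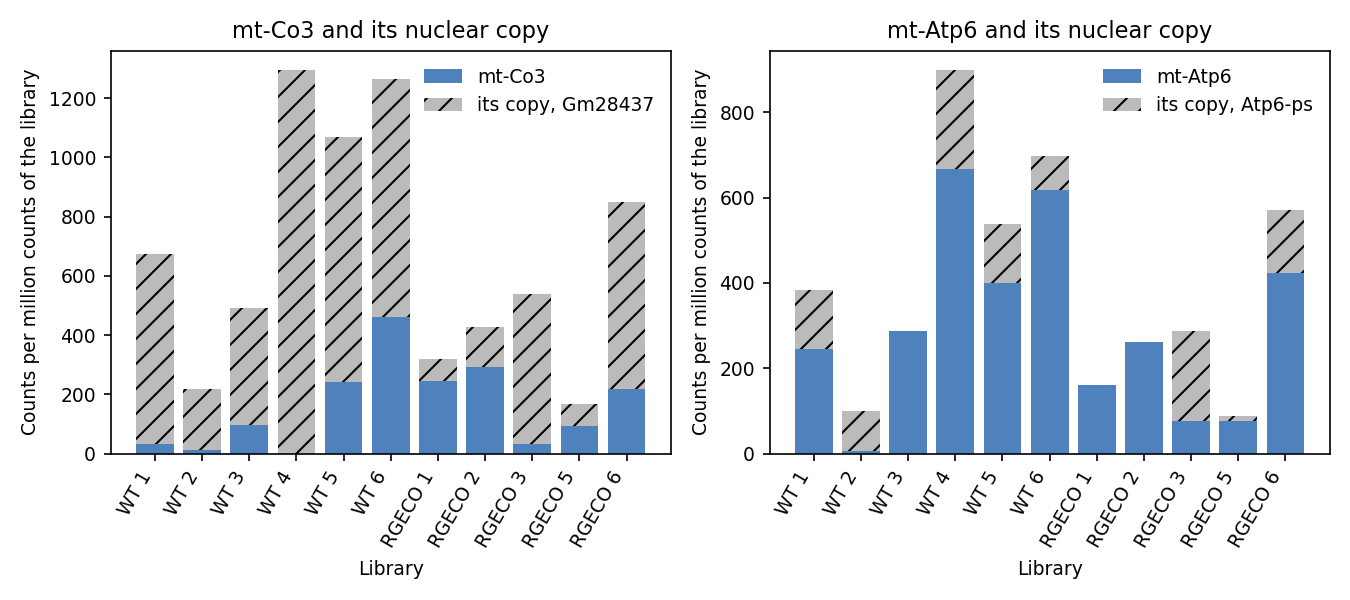
Counts per 1000000 counts of the library for mt-Co3 with Gm28437 (left) and mt-Atp6 with Atp6-ps (right), stacked in each library, with the mitochondrial gene in blue and its nuclear copy hatched. The division inside a bar changes from library to library. For instance, the copy's share of the mt-Co3 pair is 100% in WT replicate 4 and 23.6% in RGECO replicate 1.

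Levels of different genes were compared per length, as the deposited TPM (transcripts per 1000000, corrected for transcript length). The top gene in each of the 11 libraries was mt-Co1, the catalytic subunit of cytochrome c oxidase. Its TPM ran from 758 through a median of 4245 to 8032 in WT and was 3717, 3726, 3231, 1868 and 6778 in RGECO replicates 1, 2, 3, 5 and 6. Behind it came mt-Rnr2, the large ribosomal RNA (mean TPM 1104, 3.90-fold below mt-Co1), and mt-Co2, which carries the copper centre that takes electrons from cytochrome c (1021, 4.22-fold below). These neighbours changed places between libraries and do not differ beyond their spread.

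The TPM of mt-Co2 ran from 456 through 1307 to 2153 in WT and was 409, 535, 847, 355 and 1103 in RGECO. That of mt-Atp6 ran from 12.5 through 839 to 1630 in WT and was 465, 663, 193, 182 and 1061 in RGECO, the value of 12.5 being the library in which the copy took most of the pair. The mean levels of mt-Atp6 (728) and mt-Nd1 (678) were close, and those of mt-Atp8 (376), mt-Cytb, mt-Co3, mt-Nd2, mt-Nd5 and mt-Nd4 (262) followed. The spread of each over libraries includes that of the shared mitochondrial total, so it does not tell whether genes differ within libraries. The TPM of mt-Nd5, for instance, was above that of mt-Nd4 in every library used, at 279 against 244 in WT replicate 1. Counts per base put mt-Atp8, the shortest messenger RNA with 204 bases of which 43 overlap mt-Atp6, at rank 11 rather than at rank 6 by TPM. With its copy, mt-Co3 rose from rank 9 to rank 2 in CPM per kilobase (197 against 839).

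At the low end stood mt-Nd6, the complex I subunit encoded on the minus strand (mean TPM 52.2, 82.5-fold below mt-Co1), and mt-Rnr1, the small ribosomal RNA (34.8, 124-fold below). The last 14 bases of mt-Nd6 overlap mt-Nd5 on the opposite strand, and without a stated strand setting reads there cannot be told apart. The 2 ribosomal RNAs are neighbours on the precursor, yet mt-Rnr2 had between 2.94 and 397 times the counts of mt-Rnr1. All these levels are of RNA selected for poly(A) tails, so they are not a measure of abundance in the cell. The part of the tails in the differences between genes was not tested.

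**Figure D3:**
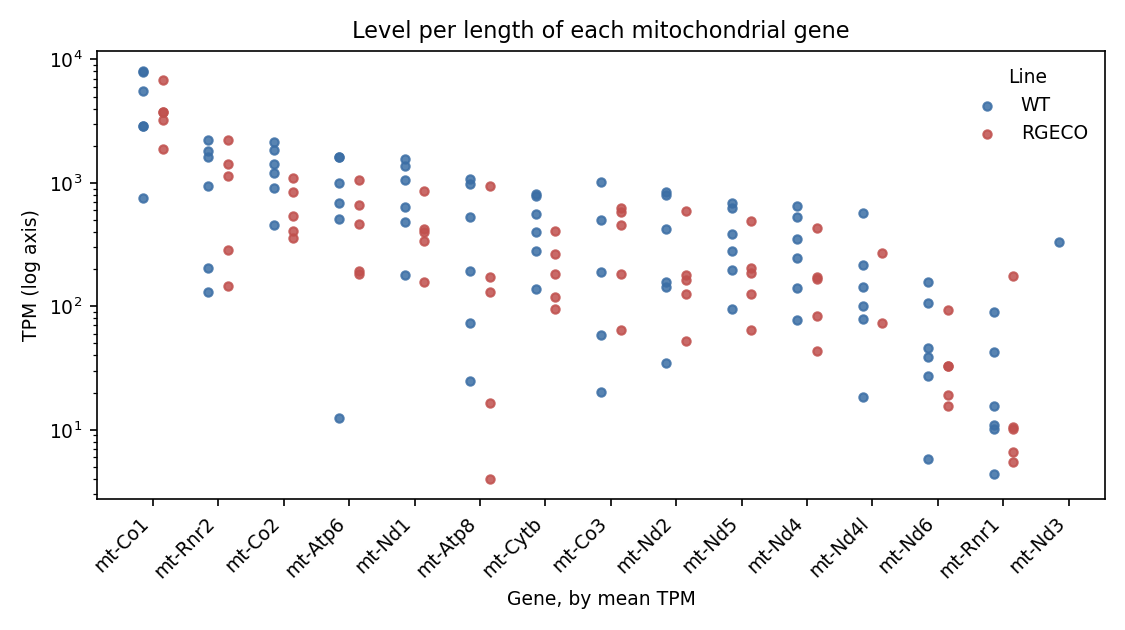
Deposited TPM of the 15 mitochondrial genes with a count (log axis), ordered by mean TPM, with 1 point per library for WT (blue) and RGECO (red); values of 0 cannot be drawn on this axis. The points of mt-Co1 lie highest, from 758 to 8032, and both lines overlap for each gene seen in both.

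The first comparison of the lines asked whether mitochondrial RNAs differed in level, with all genes in 1 fit. Of the 14 mitochondrial genes tested, 0 passed the quasi-likelihood test of edgeR (Benjamini-Hochberg adjustment over 13318 genes), against 8.35% of all genes tested. The number with an unadjusted p under 0.05 was 2, or 14.3%, against 22.1% of all genes. DESeq2 called 1 of the 14, mt-Co2, beside 1674 of the 13318 genes. The fold changes lay below 0 for 12 of the 14, as they did for 51.5% of all genes, with a median log2 fold change of -0.85 against -0.01 over all genes. The members share the mitochondrial total of each library, so their signs are not independent. With the copies added, 0 of 15 genes passed, against 8.40% of all genes, and 14 lay below 0.

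The precision was low for these genes. Their standard errors ran from 0.36 to 1.25 on the log2 scale, and 82.4% of all genes tested had a smaller one than the best of them. For 0 of the 14 did the 95% interval stay within 2-fold in both directions, while it did for 74.0% of all genes. For 6 of the 14 the interval took in 2-fold changes in both directions.

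Among complex I messenger RNAs, mt-Nd1 had a CPM of 151 to 984 in WT (median 562) and of 186, 258, 250, 106 and 526 in RGECO. Its log2 fold change was -1.07 ± 0.51 (SE), which did not pass (edgeR adjusted p = 0.261). The other 5 tested, mt-Nd2, mt-Nd4, mt-Nd4l, mt-Nd5 and mt-Nd6, had log2 fold changes from -1.41 to -0.73 with adjusted p from 0.438 to 0.610. The value of -1.41 was that of mt-Nd4l without its copy, and with the copy it stood at -0.87 (edgeR adjusted p = 0.623). With its copy, mt-Nd3 was tested too, at -1.27 (edgeR adjusted p = 0.600). Of complex III the mitochondrial chromosome encodes cytochrome b alone. Its messenger RNA mt-Cytb had a CPM of 144 to 640 in WT (median 398) and of 79.8, 139, 206, 78.1 and 312 in RGECO. The log2 fold change was -1.26 ± 0.47 (SE, edgeR adjusted p = 0.138), and with all 12 libraries -1.36 (adjusted p = 0.0142). That setting adds only RGECO replicate 4, which holds 825 counts and 0 mitochondrial counts, and it called 820 of all genes.

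Of the complex IV subunits, mt-Co2 came nearest to the threshold. Its CPM was 254 to 878 in WT (median 578) and 143, 213, 344, 154 and 441 in RGECO, with the lines overlapping. The log2 fold change was -1.10 ± 0.36 (SE, edgeR adjusted p = 0.0807). It passed without WT replicate 2 (-1.24, adjusted p = 0.0452) and without RGECO replicate 6 (-1.36, adjusted p = 0.0353), and with the copy added it stood at -0.94 (adjusted p = 0.219). For mt-Co1 the CPM was 1102 to 8893 in WT (median 4901) and 3586, 4029, 3556, 2189 and 7355 in RGECO. Its log2 fold change was -0.32 ± 0.47 (SE, edgeR adjusted p = 0.764). The sign for mt-Co3 turned with the copy, from 0.38 alone to -0.83 with Gm28437 (adjusted p = 0.901 and 0.367).

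The complex V messenger RNAs mt-Atp6 and mt-Atp8 had log2 fold changes of -0.85 and -0.81 (edgeR adjusted p = 0.629 and 0.746). With its copy, mt-Atp6 stood at -0.79 (edgeR adjusted p = 0.480). For the ribosomal RNA mt-Rnr2 the CPM was 195 to 2280 in WT (median 1528) and 282, 1570, 1294, 177 and 2456 in RGECO, with a log2 fold change of -0.18 ± 0.85 (SE, edgeR adjusted p = 0.940). For mt-Rnr1 it was 3.68 to 68.1 in WT (median 7.89) and 95.9, 6.49, 3.46, 4.38 and 6.19 in RGECO. Replicate 1 of each line stood far above the other libraries of that line, and the log2 fold change of 0.21 ± 1.12 (SE) went to -1.95 without RGECO replicate 1.

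The second comparison looked at the make-up of the mitochondrial total, since a messenger RNA can change its part of the total while the total varies. The share of mt-Co1 was 49.1 to 60.9% in WT and 70.2, 55.1, 56.4, 71.4 and 55.4% in RGECO, and the lines overlapped. The share of mt-Nd1 was lower in every RGECO library than in any WT library: 6.25, 6.95, 5.83, 5.99, 5.69 and 5.14% in WT replicates 1 to 6 against 3.64, 3.53, 3.97, 3.44 and 3.96% in RGECO replicates 1, 2, 3, 5 and 6. The means were 5.97 ± 0.606% (SD, n = 6) and 3.71 ± 0.244% (SD, n = 5), with coefficients of variation of 10.1 and 6.59%, against medians of 38.5 and 36.3% over the 14 genes.

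The share of mt-Cytb also separated the lines, at 4.80, 6.63, 4.23, 3.89, 3.77 and 3.64% in WT and 1.56, 1.90, 3.27, 2.55 and 2.35% in RGECO. These 2 of the 14 tested messenger and ribosomal RNAs did not overlap between the lines, both lower in RGECO, against 0.511% of all genes when each is divided by the mitochondrial count (0.210% lower in RGECO). Nuclear genes divided in this way carry the full spread of the mitochondrial total, so that background is not like for like. By CPM, 0 of the 14 did not overlap, against 7.97% of all genes. By deposited TPM the shares of mt-Nd1 stayed apart, and those of mt-Cytb overlapped.

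With the copies added, the shares of mt-Nd1 drew closer together within each line, at 4.86 to 5.65% in WT (median 5.42) and 3.58, 3.46, 3.52, 3.34 and 3.69% in RGECO. Those of mt-Cytb were 3.44 to 5.39% in WT (median 3.74) and 1.54, 1.86, 2.90, 2.47 and 2.19% in RGECO. The ratio of mt-Co1 to mt-Nd1 counts, taken without the copies, was 7.86, 7.29, 10.5, 9.03, 9.38 and 10.3 in WT and 19.3, 15.6, 14.2, 20.7 and 14.0 in RGECO. The lowest RGECO ratio thus stood above the highest of WT. Genes named in this and the preceding paragraph for not overlapping were chosen after their values were seen.

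**Figure D4:**
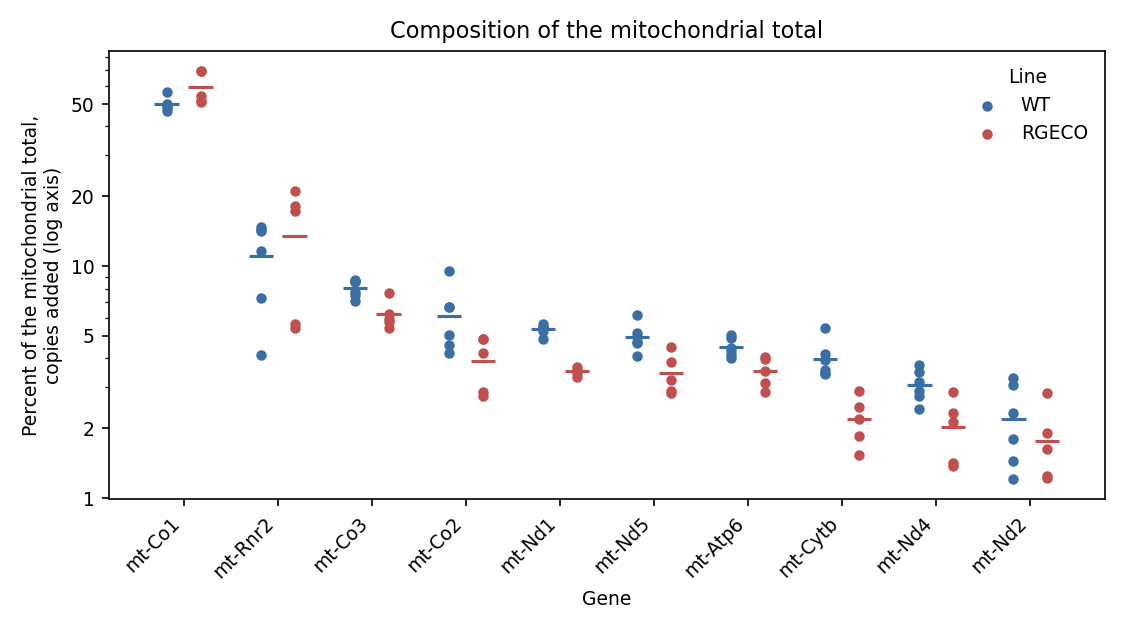
Share of the mitochondrial total, copies added, of the 10 genes with the largest shares (log axis), with 1 point per library and a line at the mean for WT (blue) and RGECO (red). The points of mt-Nd1 (4.86 to 5.65% in WT, 3.34 to 3.69% in RGECO) and of mt-Cytb do not overlap between the lines, while 3 of the 5 RGECO points of mt-Rnr2 (17.2, 18.2 and 21.1%) lie above the WT points (4.14 to 14.7%) and the other 2 lie among them.

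By complex, with copies added, the 3 complex IV messenger RNAs made up 69.6 to 75.2% of the messenger RNA counts in WT and 84.2, 79.5, 77.8, 84.5 and 74.7% in RGECO. The 7 of complex I made up 15.4 to 20.6% in WT and 10.8, 13.5, 13.6, 9.87 and 17.5% in RGECO. RGECO replicate 6 overlapped WT in both. Complex III, which is mt-Cytb, had 4.02 to 5.82% in WT and 1.66, 2.37, 3.55, 2.62 and 2.65% in RGECO, and complex V 4.41 to 5.79% in WT and 3.37, 4.56, 5.10, 3.04 and 5.15% in RGECO.

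To test single genes at an equal mitochondrial share, the log2 share of each library was entered as a covariate in the edgeR fit of all genes. The covariate is a sum over the tested genes in which mt-Co1 weighs most, so these fold changes are relative to that total. This fit was an alternative. The test planned for the make-up of the total, given further below, called 0 of the 14 genes. At a threshold of adjusted p 0.05, 4 of the 14 mitochondrial genes were lower in RGECO and 0 higher, against 20.9% of all genes called in either direction and 10.5% called lower. With the copies added, 6 of 15 were lower and 0 higher, against 20.6% of all genes called and 10.3% called lower.

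The clearest was mt-Nd1, with a log2 fold change of -0.70 ± 0.09 (SE, edgeR adjusted p = 9.66e-06). It kept its call without each library in turn, from -0.75 to -0.61, and stood at -0.61 ± 0.08 (adjusted p = 1.44e-05) with the copies added. Next came mt-Cytb at -0.98 ± 0.19 (SE, adjusted p = 0.00408), which also passed without each library in turn and stood at -0.91 ± 0.15 (adjusted p = 6.64e-04) with the copies. The third was mt-Co2 at -0.88 ± 0.19 (SE, adjusted p = 0.00823); with the copies it was -0.70 ± 0.21 (adjusted p = 0.0363) and then lost its call without any 1 of WT replicates 1, 2, 3 or 4 or RGECO replicates 2 or 5.

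The call of mt-Nd5, the longest messenger RNA and a proton-pumping subunit of complex I, was less steady. It stood at -0.59 ± 0.18 (SE, edgeR adjusted p = 0.0428) and passed without WT replicate 5 or RGECO replicate 6, but was lost without any 1 of the other 9 libraries. With the copies it was -0.50 ± 0.14 (adjusted p = 0.0176), lost without WT replicate 2 (-0.29, 0.108) and kept without each of the other 10 libraries, by a narrow margin without RGECO replicate 2 (-0.47). The share of mt-Nd5 in the mitochondrial total, without copies, was 5.67, 7.57, 5.02, 5.62, 4.44 and 4.96% in WT and 2.90, 3.30, 4.34, 2.97 and 4.83% in RGECO, where replicate 6 alone lay within the WT range. The call of mt-Co3 existed with its copy only, at -0.39 ± 0.09 (adjusted p = 0.00635), and missed the threshold without WT replicate 2 (-0.35, 0.0501). That of mt-Atp6 also needed its copy, at -0.31 ± 0.10 (adjusted p = 0.0265), and was lost without any 1 of WT replicates 2, 3 or 4 or RGECO replicates 1, 2 or 5.

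Leaving out WT replicate 2, the library with the lowest mitochondrial share, moved the count with copies from 6 to 2, mt-Nd1 and mt-Cytb. No gene was called higher in RGECO. With copies, mt-Co1 stood at 0.20 ± 0.11 (SE, edgeR adjusted p = 0.201), mt-Rnr2 at 0.48 ± 0.40 (0.453) and mt-Nd2 at -0.06 ± 0.15 (0.822). A further fit, without copies, kept mt-Co1 out of the covariate, and it called 2604 of the 13318 genes tested. There mt-Nd1 was at -0.48 (0.00167), mt-Cytb at -0.80 (5.77e-04) and mt-Co2 at -0.74 (0.00361). In the same fit mt-Nd4 was at -0.42 (0.0443) and mt-Nd5 at -0.36 (0.0364).

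**Figure D5:**
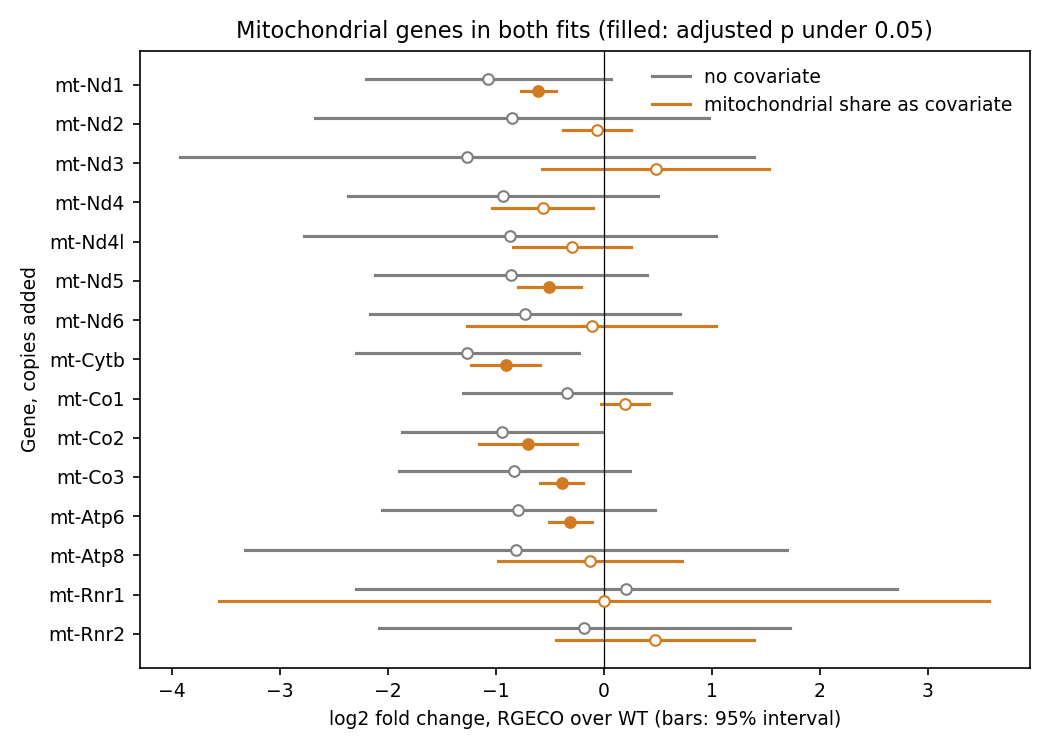
Log2 fold change, RGECO over WT, of 15 mitochondrial genes with copies added, in the edgeR fit of all genes without a covariate (grey) and with the log2 mitochondrial share as covariate (orange). Bars are 95% intervals and filled points have an adjusted p under 0.05, which holds for 0 genes in grey and 6 in orange, among them mt-Nd1 at -0.61.

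The test planned for the make-up of the total was a fit that set each library's size to its mitochondrial total. It called 0 of the 14 mitochondrial genes, against 0.158% of all genes, with 1 at an unadjusted p under 0.05 (mt-Nd4l) and 0 by DESeq2. All standard errors lay between 0.63 and 0.71. For mt-Nd1 the log2 fold change was -0.69 with a 95% interval from -2.01 to 0.64. The cause of the wide intervals was not tested.

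Few nuclear genes that serve mitochondrial RNA or DNA passed the test. Of 36 genes for mitochondrial transcription, RNA processing, stability and DNA replication, all tested, 0 rose and 1 fell, against 8.35% of all genes called, and the median log2 fold change was -0.01, beside -0.01 over all genes. The gene that fell was Tbrg4 (also known as Fastkd4), which encodes a mitochondrial RNA-binding protein, at 41.9 ± 8.83 CPM in the 6 WT libraries and 24.1 ± 4.03 CPM in the 5 of RGECO (SD). Its log2 fold change was -0.80 ± 0.16 (SE, edgeR adjusted p = 0.00589), and it did not pass when log2(TPM + 1) was tested with limma (-0.59, adjusted p = 0.155).

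Polrmt, the mitochondrial RNA polymerase, had 33.7 ± 9.75 CPM in WT and 32.7 ± 3.50 in RGECO (log2 fold change -0.04 ± 0.18 SE, edgeR adjusted p = 0.932). Tfam, which packs mitochondrial DNA and opens its promoters, had 19.3 ± 5.93 and 20.0 ± 5.30 CPM (0.06 ± 0.23 SE, edgeR adjusted p = 0.931). Lrpprc, a binding protein that stabilises mitochondrial messenger RNAs, had 41.0 ± 7.78 and 47.3 ± 4.07 CPM (0.21 ± 0.14 SE, edgeR adjusted p = 0.419).

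The nuclear-encoded partner subunits of the same complexes did not pass the test either. In complex I, 39 of 43 listed genes were tested and 0 passed, against 8.35% of all genes, with a median log2 fold change of -0.00. The same held for 9 genes of complex III (median -0.07), 14 of 15 of complex IV (-0.00), 18 of complex V (0.02) and 4 of complex II (0.09), which has no mitochondrially encoded subunit. Over these 84 tested genes the edgeR test gave 5 with an unadjusted p under 0.05, against 22.1% of all genes. They were Ndufb2, Ndufb4, Ndufc2, Cox6a2 and Atp5f1b, named here after their values were seen. DESeq2 called 1 of the 84, Ndufc2, and 1674 of all genes tested. The summed level of the complex I genes was 1728 to 2368 CPM in WT and 1677 to 2295 in RGECO, and that of complex V 3421 to 4088 and 3586 to 4311. The library-to-library range of these sums was far narrower than the 8.23-fold range of the mitochondrial share.

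Some cell type markers passed the test between the lines, as did 8.35% of all genes tested. Of the 8 myotube genes, Myh3, embryonic myosin heavy chain, rose (log2 fold change 0.54, edgeR adjusted p = 0.0202) and 0 fell, and of 4 genes of proliferating cells, Ccnb1, a mitotic cyclin, fell (-0.84, adjusted p = 0.00659). Of 4 tested fibroblast or adipogenic genes, the collagen gene Col1a1 (-1.98) and the receptor gene Pdgfrb (-1.59) fell and Dcn, a matrix proteoglycan, rose (0.96). Both tested genes of the neuronal list rose, the tubulin gene Tubb3 (0.78, edgeR adjusted p = 0.0255) and Map2, which encodes a microtubule-associated protein (0.75, adjusted p = 0.0326). The part of differentiation state or of cell mixture in the mitochondrial values was not tested. In bulk RNA, fewer cells of a type and less RNA per cell cannot be told apart.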

How the data were processed

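RNA was measured in 6 WT and 6 RGECO libraries of C2C12 cells. The authors deposited estimated counts per gene, not normalised, and TPM per gene, both merged over samples after Salmon, as the file names say; the deposited TPM are corrected for length and scaled by the authors to a fixed sum per library. The submitters' processing notes name Salmon, STAR, bedtools 2.25.0 and BWA 0.7.12-r1039, with GRCm39, mm10 and hg19 as builds. What each was used for, which annotation was counted and whether strand was used is not given in the sources used here, so reads of a gene and its antisense partner cannot be told apart. Library totals ran from 5881622 to 11926220 counts after RGECO replicate 4 (825 counts) was left out under a minimum of 1000000 counts.

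After rounding, the estimated counts went into edgeR 4.0.16 under R 4.3.3 (filterByExpr, TMM, robust quasi-likelihood F test, Benjamini-Hochberg adjustment over 13318 genes, threshold 0.05), with standard errors and 95% intervals from the F statistic. The script was tested on simulated data. Alternatives used DESeq2 1.42.0, limma 3.58.1 on log2(TPM + 1) or log2(TPM + 0.1), other scalings, filters and sets of libraries, and the log2 mitochondrial share as a covariate. The fit with copies added, and the further settings of the covariate fit, were chosen after seeing the data. Shares and sums over mitochondrial genes were given no test. Copies were found with blastn 2.17.0 (identity of at least 95% over at least 200 bases) in GENCODE M21 transcripts of GRCm38, which also gave the printed sequences and coordinates and may differ from the build the authors used; genes were joined by Ensembl identifier.

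The members and lists were chosen with earlier results of these data known. All mitochondrial genes are accounted for. Values per library, or for WT the lowest, median and highest, are given for the total, the classes, both ribosomal RNAs, the 3 messenger RNAs highest per length and genes past the threshold. Of the nuclear lists, genes past the threshold are named, with Polrmt, Tfam and Lrpprc whatever their values. Nothing in the labels says whether replicates are separate cultures. The p-values thus reflect only the spread among these samples, which may be technical. No 2 libraries agreed within sampling noise (smallest chi-square per gene 7.61 over 25 pairs within a line). Limits for counts of 0 use 3 counts, and they and the 95% Wilson intervals cover counting error only.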

Additional observations from a re-analysis of the deposited data

Results flagged for a closer look

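In 9 of 60 groups of values, each 1 gene or sum in 1 line, a single library stood far from the other libraries of its line by Dixon's 95% limit, which chance alone exceeds in about 1 of 20 groups, or 3 of 60. Values of mitochondrial genes in a library share 1 total, so these groups are not independent.

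For the small ribosomal RNA mt-Rnr1, replicate 1 was the high library in both lines. Its CPM was 68.1 in WT replicate 1 and 95.9 in RGECO replicate 1, and its share of the mitochondrial total was 0.869% and 1.88% in the same libraries. RGECO replicate 6, the RGECO library with the highest mitochondrial share, stood apart in the CPM of 4 messenger RNAs. These were 406 for mt-Nd2, 38.9 for mt-Atp8, 26.5 for mt-Nd4l and 24.8 for mt-Nd6. WT replicate 4, the WT library with the highest mitochondrial share, stood apart for mt-Nd4l at 55.3 CPM. The counts of mt-Nd4l are split with its nuclear copy Gm10222, which limits the values of that gene.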

How the results depend on the processing

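Besides single libraries left out, 321 of 355 values of single genes or shares and 46 of 63 counts or summed values stayed the same. For a test this means the same sign and side of the threshold, and for a share or sum a place within its spread. For a count of called genes or a rank it means a value equal or close to the main one. Genes called, 1112 in all, numbered 1674 with DESeq2, 2784 with the share as covariate, and 568, 537 and 258 with log2(TPM + 1), log2(TPM + 0.1) and log2(TPM + 1) without a filter; 41.0% of calls were higher in RGECO, and 57.6% in the first TPM fit. Scaled to the mitochondrial total, 21 were called, 49 without a filter, 10 with a replicate block and 4 to 113 with 1 library left out. That scaling moved the median of all genes to 0.10, and to 0.54 without mt-Co1 in the total. Mitochondrial genes called, 0 in the fit of all genes, were 1 with DESeq2 (mt-Co2), 1 with all 12 libraries (mt-Cytb), 4 with the covariate and 0 to 1 with a library left out; with copies and covariate together, 6 became 2 to 8. Machinery genes called, 1, became 2 with all 12 libraries or the covariate, 0 in the 3 TPM fits and 1 to 2 with a library left out. Partner subunits called, 0, became 1 with DESeq2, 6 with the covariate and 0 to 1 with a library left out. Signs turned for mt-Rnr1 (-0.23 and -0.26 by TPM), for mt-Co3 with its copy (-0.83, scaled -0.38, with covariate -0.39), with the covariate for mt-Rnr2 (0.34) and mt-Co1 (0.19), for mt-Nd6 scaled without mt-Co1 (0.32), and, with mt-Co1 kept out of the covariate, for mt-Rnr1 (-0.32), mt-Nd2 (0.12), mt-Atp8 (0.021) and mt-Atp6 (0.065). With a library left out, ranges crossed 0 for mt-Rnr1 (-1.95 to 1.14), mt-Rnr2 (-0.63 to 0.10), Polrmt (-0.13 to 0.10) and Tfam (-0.057 to 0.19), scaled for mt-Rnr1 (-1.61 to 1.81) and mt-Nd6 (-0.48 to 0.11), and with the covariate for mt-Rnr1 (-1.87 to 1.24), mt-Atp8 (-0.84 to 0.038), mt-Atp6 (-0.53 to 0.48) and mt-Nd6 (-0.44 to 0.047). With copies and covariate they crossed 0 for mt-Rnr1 (-1.83 to 1.17), mt-Nd2 (-0.15 to 0.061), mt-Atp8 (-0.66 to 0.15) and mt-Nd6 (-0.37 to 0.12). Apart from settings that left out samples or genes, the cause was not tested. The scaled fit with all 12 libraries could not be fitted, as RGECO replicate 4 has 0 mitochondrial counts.

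Same-numbered libraries share only a number: their correlations ran from -0.15 to 0.36, and 1 of 5 correlated best with its own number. A replicate block gave 777 called genes, 0 of them mitochondrial, and turned the sign of mt-Rnr1 (-0.49, scaled -0.43), mt-Rnr2 (0.056) and mt-Co1 (0.055).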
